A study of Mus musculus with 9 samples.

Results

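T cell genes were followed in whole mouse lung: Cd3d, Cd3e, Cd3g, Cd4, Cd8a, Cd8b1, Foxp3, Gzmb, Gzma and Ifng. These genes of T cell identity and effector function are 10 of the 16842 genes tested, and were found as every array probe whose RefSeq transcript identifier maps to 1 of these symbols, giving 14 of the 56605 non-control probes. All 14 probes passed the filter on dim signal. RNA from 9 lungs was hybridised to 9 one-colour Agilent arrays, in 3 groups of 3 biological replicates. Every mouse carried TRF1flox/flox (floxed Terf1, which encodes the telomere-binding protein TRF1), and tamoxifen was given to every mouse in a weekly dose of 250 mg/kg, starting when the animals were 8 weeks old. Controls had no cre and were 11 months old after 9 months of tamoxifen. The SPC-cre lungs came from mice 5 months old after 3 months of tamoxifen, or 11 months old after 9 months. The SPC promoter drives cre in alveolar type 2 epithelial cells and not in T cells, so the members were read out in cells that the transgene does not target. No group had cre without tamoxifen, and there was no 3-month control, so the 3-month comparison also spans 6 months of age and of drug exposure.

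T cells recognise peptides through a T cell receptor that signals through the CD3 chains. CD4 and CD8 are coreceptors for class II and class I major histocompatibility molecules, and Foxp3 is the lineage factor of regulatory T cells, which restrain other lymphocytes. Granzymes are serine proteases released by cytotoxic T cells and natural killer cells, and interferon-gamma, encoded by Ifng, is the cytokine of type 1 immunity. In lung, resident and recruited T cells sit in the interstitium, along airways and in lymphoid aggregates, and Gzma in particular is also a natural killer cell gene.

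Levels are log2 processed signal relative to the 75th percentile of each array's own non-control probes, so 0 is a probe at that percentile, and levels of different genes cannot be ranked against each other. The 75th percentile was 958 to 1430 intensity units over the 9 arrays and the local background 28 to 35 units. A gene is said to have risen or fallen only at an adjusted p under 0.05 in limma, adjusted by the Benjamini-Hochberg method over all genes tested. The arrays lay on 2 slides: slide 1 held the 3 controls and replicate 1 of the 3-month group, and slide 2 held the other 5 arrays. Control and 9-month SPC-cre lungs therefore never shared a slide. Xist and Y-linked probes read as male in all 3 controls, in replicate 2 of the 3-month group and in replicate 1 of the 9-month group, and as female in the other 4. All 10 epithelial and endothelial lung markers, among them Sftpc and Ager, were well above background on all 9 arrays. Of 12 thymic markers, 6 (Rag1, Rag2, Ptcra, Psmb11, Foxn1 and Arpp21) were well above background on 0 of 9 arrays, 5 (Dntt, Ccr9, Tbata, Cd1d1 and Tdgf1) on all 9, and Prss16 on 7. The array of 9-month SPC-cre replicate 3 stood apart: it had the highest level of all 9 arrays for 5 of 10 members and for 8 of 10 pan-leukocyte genes, against 17% of all genes.

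In the 9-month SPC-cre lungs Foxp3 rose and Gzma fell against 9-month controls, while the CD3 chains, Cd8a and Cd8b1 did not pass the test. That is 2 of 10 members called, against 6.45% of all genes. The 1 rise compares with 3.65% of all genes called higher and the 1 fall with 2.81% called lower. Positive differences numbered 7 and negative ones 3, and the median member difference was 0.23 on the log2 scale beside 0.024 over all genes. At an unadjusted p under 0.05, 2 members were higher and 1 lower at 9 months, beside 14.8% and 12.5% of all genes and 27.3% in either direction. In the 3-month SPC-cre lungs 0 of 10 members was called by limma, against 0.451% of all genes (0.368% higher and 0.0831% lower). At an unadjusted p under 0.05, 4 members were higher and 0 lower, beside 11.6% and 7.1% of all genes and 18.7% in either direction. Between the 9-month and 3-month SPC-cre lungs 0 of 10 members was called, against 4.99% of all genes (1.79% higher and 3.2% lower). At an unadjusted p under 0.05, 0 were higher and 2 lower, beside 12.7% and 16% of all genes and 28.7% in either direction. The first 2 comparisons share the 3 control arrays. Both calls at 9 months were lost with slide as a block and with sex as a covariate, fits in which 0 of 16842 genes was called for that comparison by limma. At an unadjusted p under 0.05 those fits held 837 and 3710 of the 16842 genes, where the fit with 3 group means held 4602.

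**Figure D1:**
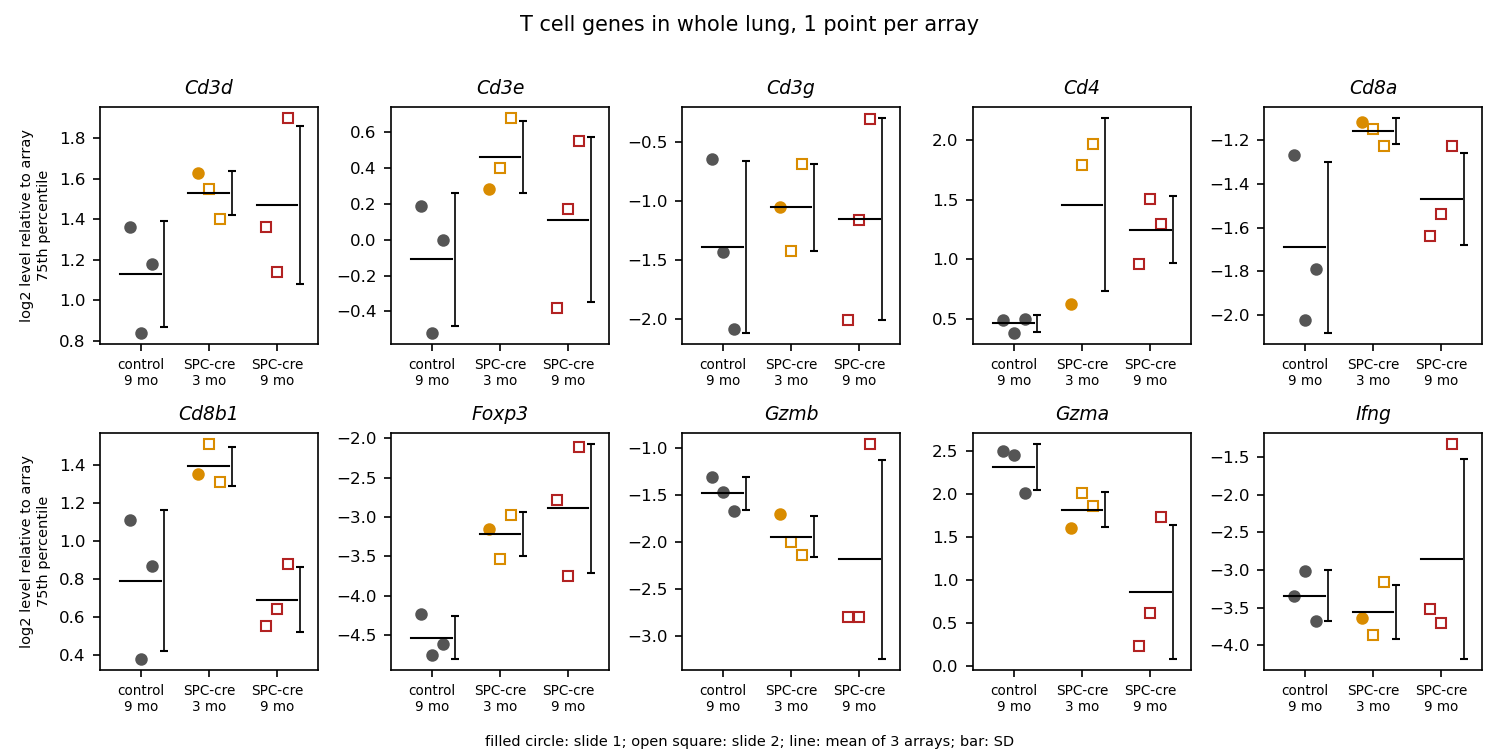
Level of each T cell gene on every array, as log2 signal relative to the 75th percentile of that array, with 3 arrays per group; filled circles are slide 1, open squares slide 2, the line is the mean and the bar the SD. All 3 control arrays lie below every SPC-cre array for Foxp3 and above every SPC-cre array for Gzma, where 2.01 in a control and 2.01 in a 3-month lung part only past the second decimal.

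The upstream sequences of the 3 members with a role in suppression or killing are shown because Foxp3 and Gzma were the members that passed the test and Gzmb is the companion granzyme of Gzma. RefSeq promoter windows on GRCm38.p6 were available for 8 of the 10 members, and the 250 bases before the annotated start were searched on both strands for 5 motifs. RUNX factors, which act throughout T cell development, were searched by their core TGTGGT. The motif TGANTCA stood for AP-1, which acts downstream of the T cell receptor, and the core GGAAAA stood for its partner NFAT. T-box factors such as T-bet and Eomes were searched by the half-site GGTGTGA, and the TATA box by the letters TATAAA. None of these motifs overlapped another in the windows printed. Letters of a match are in capitals and all windows read 5′ to 3′ on the gene's strand. The Foxp3 window lies at chrX:7579426-7579675 on the plus strand, before the upstream one of 2 annotated starts, and holds TATAAA at position -32.
Foxp3: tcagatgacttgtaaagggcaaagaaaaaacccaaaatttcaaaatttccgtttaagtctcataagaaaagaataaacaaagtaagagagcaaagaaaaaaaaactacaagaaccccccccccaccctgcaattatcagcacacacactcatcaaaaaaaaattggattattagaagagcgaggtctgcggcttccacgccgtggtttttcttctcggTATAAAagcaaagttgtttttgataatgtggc
The Gzma window lies at chr13:113100982-113101231 on the minus strand. It holds the RUNX core at -50 and the NFAT core at -92, both on the opposite strand.
Gzma: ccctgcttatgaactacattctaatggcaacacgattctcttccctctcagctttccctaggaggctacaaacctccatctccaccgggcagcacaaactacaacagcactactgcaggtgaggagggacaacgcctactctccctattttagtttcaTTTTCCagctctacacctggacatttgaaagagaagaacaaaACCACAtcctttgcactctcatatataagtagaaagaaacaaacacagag
The Gzmb window lies at chr14:56262335-56262584 on the minus strand. It holds the RUNX core at -93 and -34 and the AP-1 motif at -58.
Gzmb: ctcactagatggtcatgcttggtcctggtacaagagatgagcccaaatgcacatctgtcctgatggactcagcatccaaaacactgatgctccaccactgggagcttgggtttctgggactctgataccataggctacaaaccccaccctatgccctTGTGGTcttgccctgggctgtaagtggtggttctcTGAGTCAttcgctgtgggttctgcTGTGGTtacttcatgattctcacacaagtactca
Among 32851 promoter windows of the same length, 14% hold the RUNX core, 6.7% the AP-1 motif, 20.4% the NFAT core, 3.3% the T-box half-site and 12.4% the TATA box. Of the other windows, that of Ifng holds TATAAA at -30, and those of Cd3d, Cd3e, Cd3g and Cd8a hold no match to the 5 motifs. A match is a run of letters and not a measured binding site.

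The CD3 chains carry the signal of the T cell receptor, and Cd3g, Cd3d and Cd3e lie next to one another in the RefSeq annotation. Cd3d (delta chain) stood at 1.36, 0.84 and 1.18 in the controls, 1.63, 1.55 and 1.40 in the 3-month SPC-cre lungs and 1.36, 1.14 and 1.90 in the 9-month SPC-cre lungs. Cd3e (epsilon chain) stood at 0.19, -0.52 and 0.00 in the controls, 0.28, 0.40 and 0.68 at 3 months and -0.38, 0.17 and 0.55 at 9 months. Every 3-month lung lay above every control for both genes, whereas the 9-month lungs overlapped both other groups. The third chain, Cd3g (gamma), was the most scattered of the CD3 genes, at -0.64, -1.43 and -2.09 in the controls, -1.05, -1.42 and -0.68 at 3 months and -2.01, -1.16 and -0.30 at 9 months. All 3 groups overlapped for Cd3g.

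At 9 months the differences from control were 0.34 ± 0.21 (SE, 3 arrays per group; adjusted p = 0.324) for Cd3d, 0.22 ± 0.26 (adjusted p = 0.614) for Cd3e and 0.23 ± 0.48 (adjusted p = 0.774) for Cd3g. Their 95% intervals, from -0.14 to 0.82, from -0.38 to 0.82 and from -0.86 to 1.33, include both no difference and a clear gain. At 3 months the differences were 0.40 ± 0.21 (adjusted p = 0.339), 0.56 ± 0.26 (adjusted p = 0.291) and 0.34 ± 0.48 (adjusted p = 0.734). The second probes of Cd3d and Cd3e gave like values: 0.36 and 0.20 at 9 months, and 0.47 and 0.74 at 3 months. Without 9-month replicate 3 the Cd3g difference at 9 months was -0.19 in place of 0.23, and that of Cd3e was 0.00. With slide as a block the Cd3e difference at 9 months was -0.04, and with sex as a covariate it was -0.05.

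The mean of the 3 CD3 genes, taken as a summary of T cell RNA in the lung, was -0.12 ± 0.37 (SD, n = 3) in controls, 0.31 ± 0.15 at 3 months and 0.14 ± 0.53 at 9 months, and the arrays of all 3 groups overlapped. A different number of T cells and a different amount of RNA per cell cannot be told apart in whole-lung RNA, and the same holds for every gene below. Of 10665 genes outside the list that were well above background on all arrays with a range of at least 50% of that of the CD3 mean, the 6 whose centred profile over the 9 arrays lay closest to it were Klhl35, Apcdd1, Sh2d1a, H4c11, Vasp and Blnk. Their root mean square differences were 0.144, 0.154, 0.155, 0.172, 0.175 and 0.176 log2 units. Sh2d1a encodes the adaptor SAP of T cells and natural killer cells, and Blnk a B cell adaptor. Among the members outside the CD3 genes, Cd8a lay closest at 0.191 and Gzma farthest at 0.746. These 9 points include all 3 groups and both slides, so likeness is only a description.

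Cd4, the coreceptor of helper and regulatory T cells, stood at 0.49, 0.38 and 0.50 in the controls, 0.62, 1.79 and 1.97 at 3 months and 0.96, 1.51 and 1.30 at 9 months. Every SPC-cre array lay above every control, and the values parted as cleanly by slide, with 0.38 to 0.62 on slide 1 and 0.96 to 1.97 on slide 2. The differences from control were 0.80 ± 0.32 (SE; adjusted p = 0.158) at 9 months and 1.00 ± 0.32 (adjusted p = 0.166) at 3 months, and neither passed the test. With slide as a block the 9-month difference turned to -0.46 and the 3-month one was 0.17. Within slide 1 the single 3-month array exceeded the 3 controls by 0.17, and within slide 2 the 9-month arrays lay 0.63 below the 2 arrays of the 3-month group (difference -0.63, adjusted p = 0.235). The second Cd4 probe, well above background on 6 arrays and on 1 of the 3 controls, differed by 0.17 at 9 months and 0.06 at 3 months. Slide and group cannot be told apart for the difference between control and 9-month SPC-cre lungs except through the 3-month arrays. Without 3-month replicate 1, the lone SPC-cre array on slide 1, Cd4 passed the test against control in both the older lungs (0.80, adjusted p = 0.035) and the younger ones (1.42, adjusted p = 0.0361).

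Cd8a and Cd8b1 encode the alpha and beta chains of the CD8 coreceptor of cytotoxic T cells and are neighbours in the annotation. Cd8b1 stood at 1.11, 0.38 and 0.87 in the controls, 1.35, 1.51 and 1.31 at 3 months and 0.55, 0.64 and 0.88 at 9 months. Cd8a stood at -1.27, -2.02 and -1.79, then -1.12, -1.15 and -1.23, then -1.64, -1.54 and -1.23 in the same order of groups. For both genes the 3-month lungs lay above all arrays of the other groups, although for Cd8a the closest 3-month and 9-month arrays part only past the second decimal, and controls and 9-month lungs overlapped. Cd8b1 was 0.60 ± 0.19 (SE; adjusted p = 0.157) above control at 3 months and differed by -0.70 ± 0.19 (adjusted p = 0.0628) between 9 and 3 months. The difference between 9-month lungs and controls was -0.10 ± 0.19 (adjusted p = 0.765), with a 95% interval from -0.52 to 0.33. For Cd8a the 3-month lungs differed from control by 0.53 ± 0.20 (adjusted p = 0.207) and the 9-month lungs by 0.22 ± 0.20 (adjusted p = 0.48). The Cd8a difference between 9 and 3 months was -0.31 ± 0.20 (adjusted p = 0.337). Cd8b1 passed the test between 9 and 3 months with normexp background correction (-0.67, adjusted p = 0.0485) and with an intensity trend in the prior variance (-0.70, adjusted p = 0.0482). Within slide 2 the Cd8b1 difference was -0.72, on 3 and 2 arrays. The second Cd8a probe, well above background on 6 arrays, differed by 1.16 at 3 months and by -0.10 at 9 months.

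Counted over the list, 6 of 10 members had every 3-month array above every control, namely Cd3d, Cd3e, Cd4, Cd8a, Cd8b1 and Foxp3. Over all genes 19.6% were separated in that direction and 31% in either. Gzmb and Gzma were separated downward, 2 of 10, where 11.4% of all genes were. At 9 months Foxp3 and Cd4 were separated upward, 2 of 10 beside 17.5% of all genes, and Gzma downward, 1 of 10 beside 15% of all genes (32.5% in either direction). Between 9 and 3 months Cd8a and Cd8b1 were separated downward, 2 of 10 beside 19% of all genes, and 0 upward beside 14.6%, with 33.6% of all genes in either direction. Median member differences were 0.47 at 3 months and -0.22 between 9 and 3 months, beside 0.054 and -0.029 over all genes.

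**Figure D2:**
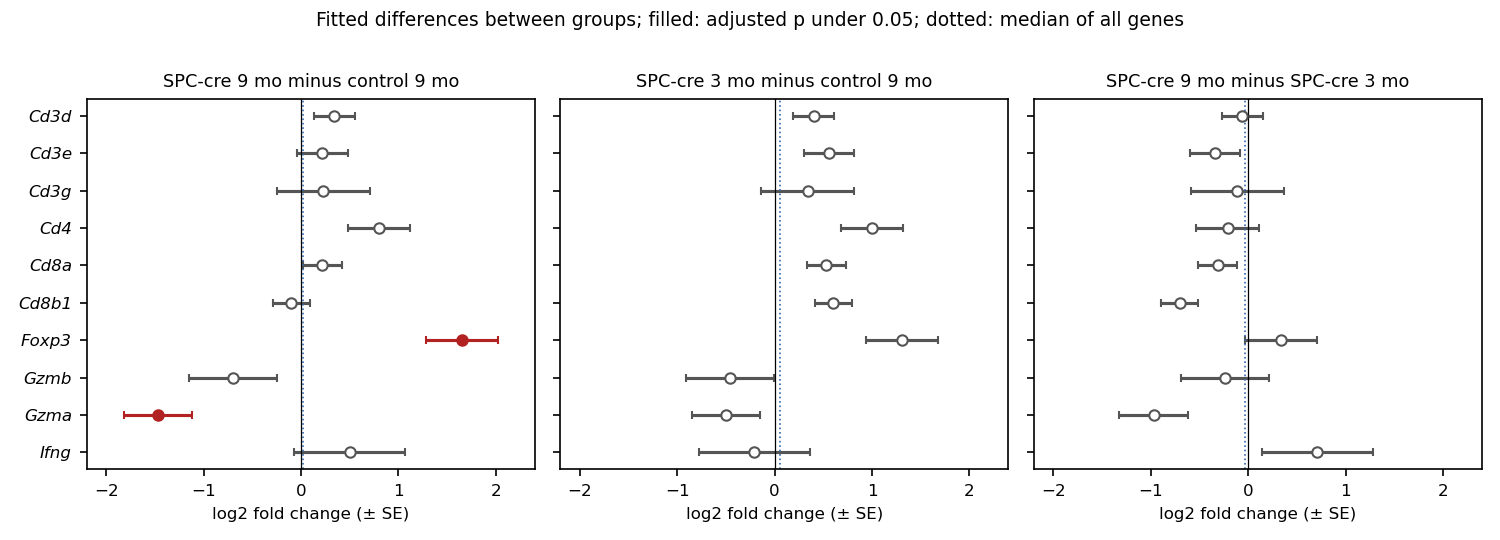
Fitted log2 fold change with its SE for the 10 members in the 3 comparisons, each from 3 arrays per group; filled points passed an adjusted p of 0.05 and the dotted line is the median of all genes. At 9 months Foxp3 lies at 1.65 and Gzma at -1.47, and in the other 2 comparisons no member is filled.

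Foxp3 was a dim probe throughout, at 40.9 to 250.0 units of background-subtracted signal, yet it was well above background on all 9 arrays. Controls stood at -4.23, -4.75 and -4.61, 3-month SPC-cre lungs at -3.15, -3.53 and -2.98 and 9-month SPC-cre lungs at -2.79, -3.75 and -2.11. Every SPC-cre lung, at either time, lay above every control, while the SPC-cre groups overlapped each other. Foxp3 rose 3.13-fold at 9 months (log2 1.65 ± 0.37 SE, adjusted p = 0.0402, higher in 3 of 3 lungs). At 3 months the difference was 1.31 ± 0.37 (adjusted p = 0.136), and between 9 and 3 months it was 0.34 ± 0.37 (adjusted p = 0.585), with an interval from -0.51 to 1.19. By group mean the order was control, 3-month and 9-month SPC-cre, but only the 9-month difference from control passed the test. Without 9-month replicate 3 the difference between 9 and 3 months was -0.05.

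The Foxp3 difference at 9 months stayed positive with slide as a block, at 1.75 ± 0.72 (unadjusted p = 0.0428, adjusted p = 0.977). That fit links controls to 9-month lungs only through the single 3-month lung on slide 1. On slide 1 this lung lay 1.38 above the controls, so both values rest on the same array and neither adds to the other. With sex as a covariate the 9-month Foxp3 difference was 1.54 ± 0.48 (adjusted p = 0.14). Its size depended on how background was removed: normexp correction gave 0.94 (adjusted p = 0.0664) and the values in the authors' deposited table gave 1.03 (adjusted p = 0.0526). The call held in 1 of 9 fits that left out 1 array, without 9-month replicate 2, with adjusted p from 0.0087 to 0.123 and differences from 1.26 to 2.08.

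Genes known from regulatory T cells were read beside Foxp3. In the list of helper and regulatory T cell genes, 16 of 22 were testable. Of these 2 rose and 0 fell at 9 months (3.65% and 2.81% of all genes). The list median was 0.42, against 0.024 over all genes. Il2ra, the high-affinity interleukin-2 receptor chain, stood at -2.63, -2.92 and -3.39 in the controls, -1.78, -2.13 and -1.89 at 3 months and -1.67, -2.12 and -1.16 at 9 months, a rise at 9 months of 1.33 ± 0.27 (SE; adjusted p = 0.0302). As with Foxp3, its SPC-cre arrays all lay above the controls. Ctla4, an inhibitory receptor of regulatory and activated T cells, was not well above background in any control, and rose at least 2.08-fold at 9 months (adjusted p = 0.0355). At 3 months neither passed the test, with Il2ra at 1.05 (adjusted p = 0.12) and Ctla4 at least 1.37-fold higher (adjusted p = 0.133). Ikzf2, which encodes Helios, a factor found in many regulatory T cells, did not move in step, at -0.06 ± 0.14 (adjusted p = 0.816) at 9 months, and Tnfrsf18, which encodes GITR, was at 0.81 ± 0.23 (adjusted p = 0.0724). Both were picked after their values were seen. Ccr4, a homing receptor of helper and regulatory T cells, was below the limit in every control and rose at least 1.8-fold at 9 months (adjusted p = 0.0178), with a bound of 1.49-fold at 3 months (adjusted p = 0.0639). Ctla4, counted among the rises of its list, and Ccr4 passed the filter on dim signal only through the SPC-cre groups. A fall from control was therefore not open to them, and their calls were not independent of that filter.

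Inhibitory checkpoint genes gave 4 rises and 0 falls among 12 tested at 9 months (3.65% and 2.81% of all genes), with a median of 0.82. Pdcd1, which encodes the receptor PD-1, rose 4.05-fold, from -3.54, -3.29 and -3.80 in the controls to -1.47, -2.16 and -0.94 (log2 2.02 ± 0.31 SE, adjusted p = 0.0163), and stood at -2.49, -3.10 and -2.62 at 3 months (0.80 ± 0.31 above control, adjusted p = 0.214). Controls and 9-month lungs were far apart for Pdcd1, and the 3-month lungs lay between them. Tox, a transcription factor of chronically stimulated T cells, rose by 0.85 ± 0.14 (adjusted p = 0.0182), Havcr2, which encodes TIM-3, by 0.81 ± 0.16 (adjusted p = 0.0277) and Cd86, a ligand of CD28 and CTLA-4 on antigen-presenting cells, by 1.27 ± 0.29 (adjusted p = 0.0419). Havcr2 and Cd86 are also made by macrophages and dendritic cells. At 3 months 0 of 12 checkpoint genes was called by limma, beside 0.451% of all genes. At an unadjusted p under 0.05, 4 were higher and 0 lower, beside 11.6% and 7.1% of all genes. Pan-leukocyte genes moved with these lists: 3 of 10 rose at 9 months (3.65% of all genes), including Vav1 by 1.04 ± 0.19 and Coro1a by 0.94 ± 0.19. Their summed level, in multiples of the array's 75th percentile, was 71.3 to 90.6 in controls, 90.0 to 112 at 3 months and 127 to 189 at 9 months. Their part in the Foxp3 and checkpoint results was not tested.

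**Figure D3:**
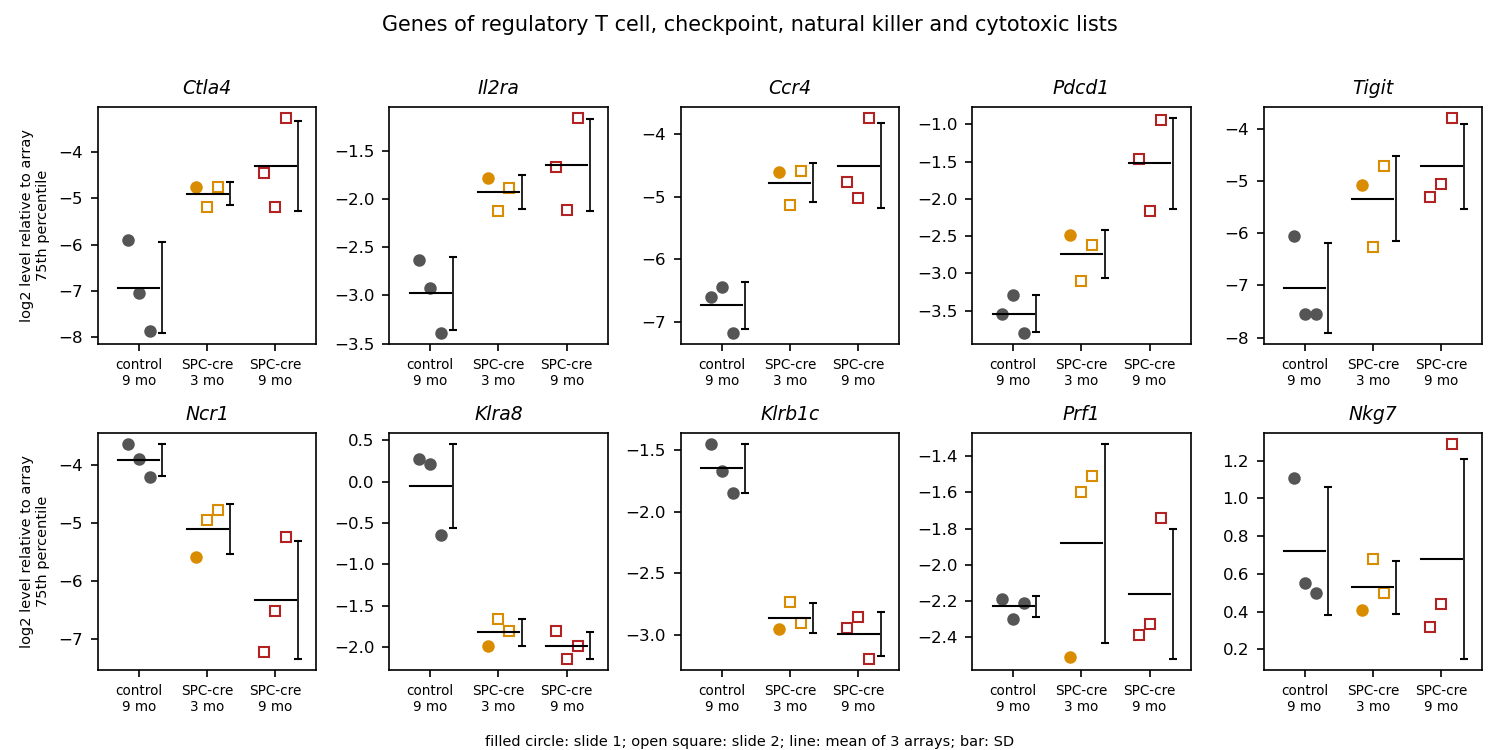
Level of 10 further lymphocyte genes on every array (log2 relative to the 75th percentile of that array; filled circles slide 1, open squares slide 2, line mean and bar SD of 3 arrays). Ctla4, Il2ra, Ccr4 and Pdcd1 are higher on every SPC-cre array than on any control, Klra8 and Klrb1c are lower on every SPC-cre array, and Prf1 and Nkg7 overlap among the groups.

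Gzma, the granzyme A protease, ran against Foxp3. It stood at 2.50, 2.46 and 2.01 in the controls, 1.61, 2.01 and 1.86 at 3 months and 0.23, 0.61 and 1.73 at 9 months. All 9-month lungs lay below all controls, and 9-month replicate 3 lay within the range of the 3-month lungs. The fall at 9 months was 2.76-fold (log2 -1.47 ± 0.35 SE, adjusted p = 0.046, lower in 3 of 3 lungs). At 3 months the difference was -0.50 ± 0.35 (adjusted p = 0.467), and between 9 and 3 months it was -0.97 ± 0.35 (adjusted p = 0.117), with an interval from -1.76 to -0.17. With slide as a block the 9-month difference was -1.79 ± 0.66 (unadjusted p = 0.0283, adjusted p = 0.977), and with sex as a covariate -1.69 ± 0.43 (adjusted p = 0.0993). As for Foxp3, the value with slide as a block rests on the single 3-month array of slide 1. When the test ran over probes in place of genes the adjusted p for Gzma was 0.057 and that for Foxp3 0.0496. The Gzma call held in 1 of 9 fits that left out 1 array, without 9-month replicate 3 (-1.90, adjusted p = 0.0113), and the adjusted p reached 0.132 in the others.

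Gzmb, the granzyme B protease of activated cytotoxic cells, stood at -1.31, -1.47 and -1.67 in the controls, -1.70, -2.0 and -2.13 at 3 months and -2.79, -2.80 and -0.95 at 9 months. The 3-month lungs lay just below the controls, while the 9-month lungs split, with 2 below every other array and replicate 3 above every other array. The 9-month difference was -0.70 ± 0.45 (SE; adjusted p = 0.336), and without replicate 3 it was -1.32 (adjusted p = 0.0156), past the threshold. With slide as a block it was -0.33 ± 0.85, and with sex as a covariate -1.04 ± 0.54. Between 9 and 3 months the difference was -0.24, and without that array -0.85 (adjusted p = 0.0384), and that of Gzma was -1.40 (adjusted p = 0.0283).

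Ifng was split by the same array. It stood at -3.34, -3.01 and -3.68 in the controls, -3.64, -3.87 and -3.16 at 3 months and -3.52, -3.71 and -1.32 at 9 months. The groups overlapped apart from 9-month replicate 3, which lay far above the other arrays. The 9-month difference was 0.50 ± 0.57 (SE; adjusted p = 0.597), with an interval from -0.81 to 1.80, and turned to -0.27 without that array. With sex as a covariate it was 0.00 ± 0.68. At 3 months it was -0.21 ± 0.57 (adjusted p = 0.867).

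Genes that induce, receive or respond to interferon-gamma followed that array too. Of 32 tested, 0 were called at 9 months by limma, beside 6.45% of all genes, and the list median was 0.16. At an unadjusted p under 0.05, 3 were higher and 0 lower, beside 14.8% and 12.5% of all genes. Replicate 3 held the highest level of all arrays for 22 of the 32 (68.8%). Cxcl9, a chemokine induced by interferon-gamma, stood at -3.44, -2.47 and -5.36 in the controls, -1.96, -3.02 and -1.11 at 3 months and -1.96, -2.01 and 0.92 at 9 months, a difference at 9 months of 2.74 ± 0.97 (adjusted p = 0.117). Cxcl10, induced likewise, differed by 1.67 ± 0.83 (adjusted p = 0.23). Without replicate 3 the median of the 32 genes at 9 months was -0.03. Between 9 and 3 months Ifngr1, a chain of the interferon-gamma receptor, rose by 0.64 ± 0.10 (adjusted p = 0.0276). It was the 1 gene of 32 called there, beside 1.79% of all genes called higher and 3.2% lower.

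The other cytotoxic effector genes did not share the fall of Gzma in this test. Of 14 tested, 2 rose and 0 fell at 9 months (3.65% and 2.81% of all genes), with a median of 0.26. Runx3, a transcription factor of CD8 T cells, rose by 0.75 ± 0.17 (SE; adjusted p = 0.0408; 0.43 with slide as a block) and Srgn, the proteoglycan serglycin that packs granules in many leukocytes, by 0.71 ± 0.16 (adjusted p = 0.0389). Prf1, which encodes the pore former perforin, differed by 0.08 ± 0.28 (adjusted p = 0.878) and Nkg7, a granule membrane protein, by -0.04 ± 0.27 (adjusted p = 0.942), both picked after their values were seen. Replicate 3 of the 9-month group held the highest level for 10 of the 14 genes, and without it 0 of the 14 was called.

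Natural killer cell markers fell beside Gzma. At 9 months 5 of 12 tested fell and 0 rose (2.81% and 3.65% of all genes), with a median of -0.41. Klra8, a receptor of the Ly49 family, stood at 0.27, 0.21 and -0.64 in the controls, -1.98, -1.66 and -1.81 at 3 months and -1.81, -2.14 and -1.99 at 9 months. Klrb1c, which encodes NK1.1, stood at -1.45, -1.67 and -1.85, then -2.95, -2.73 and -2.90, then -2.94, -2.85 and -3.19. For both genes all 6 SPC-cre arrays lay well below the controls and the SPC-cre groups overlapped. In log2 units Klra8 fell by 1.93 in the 9-month lungs (adjusted p = 0.0106) and fell by 1.76 in the 3-month lungs (adjusted p = 0.0302). In the same order Klrb1c fell by 1.34 (adjusted p = 0.00897) and fell by 1.21 (adjusted p = 0.0244). The 3-month calls held in 4 of 9 fits that left out 1 array for Klra8 and in 5 of 9 for Klrb1c. With slide as a block or sex as a covariate limma called 0 genes of all at 3 months (1144 and 2190 at an unadjusted p under 0.05), so neither call held there. Ncr1, which encodes NKp46, was well above background on all 3 controls, on 2 of the 3-month arrays and on 1 of the 9-month arrays, so the size of its fall is uncertain. Its level was -3.64, -3.91 and -4.21 in the controls and -7.23, -6.52 and -5.24 at 9 months, and it was called lower (adjusted p = 0.0266). Klra4 also fell at 9 months, by 1.12 (adjusted p = 0.0419); Ly49 genes are near-identical, so signal cannot be assigned to 1 of them. Il2rb, a receptor chain for interleukin-2 and interleukin-15, differed by 0.06 ± 0.20 (adjusted p = 0.866) and Klrk1, which encodes NKG2D, by -0.02 ± 0.29 (adjusted p = 0.973), both picked after their values were seen. The summed level of the 12 markers was 7.77 to 12.5 in controls, 7.23 to 13.3 at 3 months and 12.6 to 15.7 at 9 months. This sum weighs the brightest probes most, among them that of Cd244a, at 1.16 ± 0.40 (adjusted p = 0.111) and also picked after its values were seen. Cd244a values parted by slide, with 1.49 to 2.48 on slide 1 and 2.80 to 3.55 on slide 2. The part of natural killer cell RNA in the Gzma result was not tested.

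**Figure D4:**
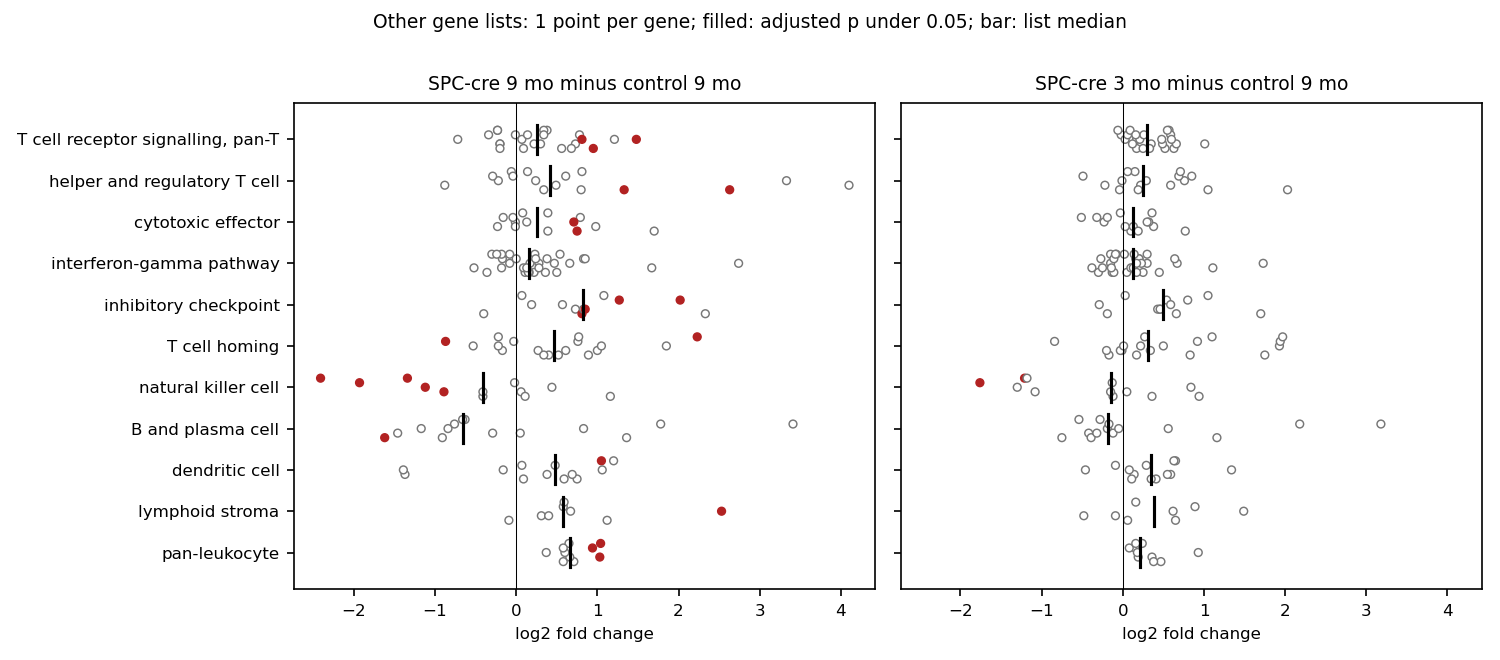
Log2 fold change of every tested gene of 11 other lists, at 9 months (left) and at 3 months (right) against control; filled points passed an adjusted p of 0.05 and black bars are list medians. At 9 months the checkpoint list has its median at 0.82 and 4 filled points to the right, and the natural killer list has its median at -0.41 and 5 filled points to the left.

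Setting each member against the mean of Cd3d, Cd3e and Cd3g on its own array asked whether members moved unequally with respect to T cell RNA as a whole. Relative to the CD3 mean, Foxp3 stood at -4.54, -4.39 and -4.31 in the controls, -3.44, -3.71 and -3.45 at 3 months and -2.45, -3.79 and -2.83 at 9 months. Gzma stood at 2.19, 2.82 and 2.32, then 1.32, 1.83 and 1.39, then 0.57, 0.57 and 1.01, and no pair of groups overlapped. Gzmb stood at -1.61, -1.10 and -1.36, then -1.98, -2.18 and -2.60, then -2.45, -2.85 and -1.67, so that replicate 3 of the 9-month group, the highest array for Gzmb itself, fell below the controls once its CD3 level was taken off.

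Relative to CD3 the differences at 9 months were 1.38 for Foxp3, -1.73 for Gzma and -0.96 for Gzmb, and at 3 months 0.88, -0.93 and -0.90. Each had an exact two-sided permutation p of 0.1, the smallest that 3 against 3 arrays allow, and an adjusted p of 0.233 over the 7 members of a comparison, so none could pass. Gzma also differed between 9 and 3 months, by -0.80 with separated groups (exact p = 0.1, adjusted p = 0.467). Groups did not overlap for 3 of 7 members at 9 months, 3 of 7 at 3 months and 1 of 7 between 9 and 3 months. Set against the CD3 mean in the same way, 7.99%, 23% and 10.1% of all genes were separated in either direction. The coreceptors stayed nearer to CD3: at 9 months Cd4 differed by 0.53 (exact p = 0.3), Cd8b1 by -0.36 (exact p = 0.3) and Cd8a by -0.04 (exact p = 0.8), and Ifng by 0.23 (exact p = 0.7), all with overlapping groups. The Foxp3 values again depended on background removal: with normexp correction they were 0.65 at 9 months and 0.21 at 3 months, and the values in the authors' deposited table gave 0.74 and 0.38.

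**Figure D5:**
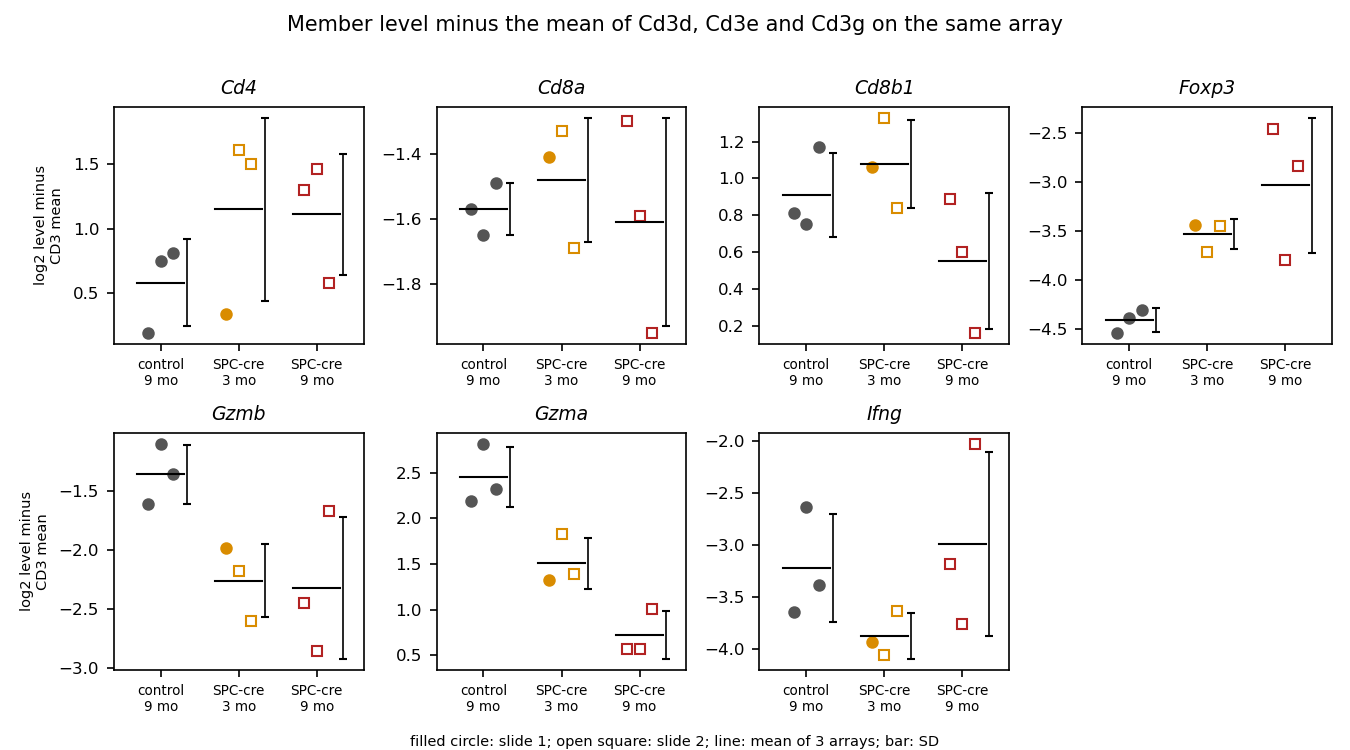
Level of 7 members minus the mean level of Cd3d, Cd3e and Cd3g on the same array (log2; filled circles slide 1, open squares slide 2, line mean and bar SD of 3 arrays; only differences between arrays carry meaning, not the height of a panel). Relative Gzma falls into 3 separate ranges, from 2.19 to 2.82 in controls, from 1.32 to 1.83 at 3 months and from 0.57 to 1.01 at 9 months.

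The remaining genes of T cell receptor signalling gave 3 rises and 0 falls among 24 tested at 9 months. Beside these, 3.65% of all genes rose and 2.81% fell, and the list median was 0.26. At 3 months limma made 0 calls in the list, beside 0.451% of all genes, and the list median was 0.30. There 8 were higher and 0 lower at an unadjusted p under 0.05, beside 11.6% and 7.1% of all genes. Fyb, an adaptor that links the T cell receptor to integrins and is also made in myeloid cells, stood at 1.59, 1.23 and 1.23 in the controls, 1.25, 1.51 and 1.37 at 3 months and 2.94, 2.20 and 3.35 at 9 months. The 9-month lungs lay above all others, and Fyb rose by 1.48 ± 0.26 (SE; adjusted p = 0.0232) against control and by 1.46 ± 0.26 (adjusted p = 0.0309) against 3 months. Ptpn22, a phosphatase that dampens receptor signalling, rose by 0.95 ± 0.17 (adjusted p = 0.0225), and Ubash3a, another negative regulator that was below the limit in every control, rose at least 1.43-fold (adjusted p = 0.0106). Like Ccr4, Ubash3a passed the filter on dim signal only through the SPC-cre groups, so a fall from control was not open to it. The proximal kinases did not pass at 9 months, with Lck at 0.30 ± 0.18 (adjusted p = 0.304) and Zap70 at 0.34 ± 0.15 (adjusted p = 0.18), named after their values were seen.

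Of 18 homing and residence genes, 1 rose and 1 fell at 9 months (3.65% and 2.81% of all genes), with a median of 0.46. Ccr4 was the rise, and Itga1, the alpha-1 integrin of tissue-resident T cells that stromal and endothelial cells also make, fell by 0.87 on the log2 scale (SE 0.21, adjusted p = 0.0471). With slide as a block the Itga1 difference was -0.35. Among lymphoid stroma markers 1 of 8 rose (3.65% of all genes), namely Cxcl13, the chemokine of B cell follicles. Its level was -1.06, -0.08 and -1.35 in the controls, 1.07, 0.50 and 0.42 at 3 months and 1.58, 1.55 and 1.99 at 9 months. All 3 groups were separate for Cxcl13, and it rose by 2.53 ± 0.33 (adjusted p = 0.0115) at 9 months and was 1.49 ± 0.33 above control at 3 months (adjusted p = 0.0973). The 9-month call of Cxcl13 held in 9 of 9 fits that left out 1 array, as did those of Klra8, Klrb1c and the dendritic cell marker Flt3. Those of Ccr4 and Ubash3a held in 9 as well. Both, like Ctla4, passed the filter on dim signal only through the SPC-cre groups, so their counts of fits are no support for the calls. The 9-month call held in 8 such fits for Pdcd1, in 6 for Fyb, Ptpn22 and Tox, in 5 for Il2ra and Vav1, and in 4 for Ncr1 and Coro1a. It held in 3 for Havcr2, in 2 for Ctla4, Cd86, Runx3, Klra4 and Itga1, and in 1 for Srgn. Against 3 months the calls of Fyb and Ifngr1 held in 4 each, and slide as a block left 0 genes called there by limma, with 3589 at an unadjusted p under 0.05. Slide as a block and sex as a covariate ended all calls at 9 months against control. They did not turn the sign of any of these differences, whether the call had held in 9 fits or in 1. With slide as a block, however, each of these differences rests on the single 3-month array of slide 1.

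Other cell types that whole lung holds also differed. Of 11 neutrophil genes 3 rose at 9 months (3.65% of all genes), with a median of 1.82. Of 12 alveolar macrophage genes 3 rose at 9 months and 3 at 3 months, beside 3.65% and 0.368% of all genes. Among these was Ctsk, a cathepsin, which rose by 1.87 on the log2 scale at 9 months. Ngp, among the neutrophil rises, passed the filter on dim signal only through the SPC-cre groups. Of 10 mast cell, 6 thymic and 10 lung structural genes, limma called 0 in each list at 9 months, beside 6.45% of all genes. At an unadjusted p under 0.05 these lists held 1 lower, 2 higher and 2 higher, beside 14.8% higher and 12.5% lower among all genes. The part of these cell types in the member results was not tested.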

How the data were processed

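RNA of 9 whole lungs was measured on 9 one-colour (Cy3) Agilent arrays, 1 per mouse, and groups were taken from the labels. Per the file headers, the deposited scanner files came from Agilent Feature Extraction 10.7.3.1 and hold intensity per spot, including a processed signal with background subtracted within the array. Another deposited table holds the authors' processed intensity per probe on a linear scale; which tool made it, no source used here says, and it served as an alternative.

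From the deposited intensity, the log2 processed signal was averaged over the spots of a probe, without irregular spots, and expressed relative to the array's 75th percentile over 56605 non-control probes. A probe was kept if some group had it well above background on each of its arrays (37646). RefSeq identifiers named 32994 probes. Symbols came from RefSeq annotation whose build differs from that of the arrays, so no gene coordinates are given, and promoters carry the build of their own table. The brightest probe stood for a gene. The 16842 genes, 10 of them lacking a value on some array, were fitted in limma 3.58.1 (R 4.3.3, data.table package version 1.17.8) with 3 group means and 6 residual degrees of freedom, with Benjamini-Hochberg adjusted p-values. Where no array of a group was well above background, folds are lower bounds: the brighter group's mean against, per array of that dim group, the higher of the dimmest signal called well above background and the probe's own signal. The script was tested on simulated data. The number of arrays limits precision. The limma p-values of the fit with 3 group means measure the spread of lungs within groups, pooled over all groups. That spread is weighed with a prior variance taken from all genes tested. Each comparison therefore also draws on the arrays of the group it leaves out.

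The 10 members are named throughout. From each other list, up to 4 called genes with the largest change were eligible in a comparison, or up to 2 as values where none was called, plus the 6 genes most like the CD3 mean. Members and lists were chosen with earlier results of these data known. Alternatives covered background correction, scaling, filters, probe choice, the groups fitted, slide, sex, a replicate block, the prior variance and leaving out each array. Same-numbered arrays did not deviate together (correlations of -0.24 to 0.04), so replicate numbers do not pair the lungs.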

Additional observations from a re-analysis of the deposited data

How the results depend on the processing

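The 2 members called at 9 months against control became 1 with normexp correction, 1 with the authors' deposited value table, 1 with a replicate block, and 0 without a filter on dim probes, with the 2 groups alone, with slide as a block and with sex as a covariate. Leaving out 1 array gave 0 to 2. At 3 months the 0 members called became 1, Foxp3, with the 2 groups alone (adjusted p = 0.0367), and 0 to 1 without an array. Between 9 and 3 months they became 1 with normexp correction and 1 with an intensity trend, and 0 to 2 without an array. Median member differences without an array ran from -0.09 to 0.45, from 0.34 to 0.71 and from -0.48 to -0.04. The 7 separated differences relative to CD3 became 7 to 11 without an array. Leaving out an array cannot undo a separation, so this count could only stay or grow.

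Signs turned with slide as a block for Cd3e (-0.04) and Cd4 (-0.46) at 9 months, and with sex as a covariate for Cd3e (-0.05) and Cd3g (-0.38) at 9 months and Cd3g (-0.27) at 3 months; the cause was not tested. Leaving out 1 array moved Cd8b1 from -0.30 to 0.07, Cd3g from -0.19 to 0.66 and Ifng from -0.27 to 0.92 at 9 months, and Cd3g from -0.01 to 0.72 at 3 months, as lowest and highest values. Between 9 and 3 months these ran from -0.54 to 0.32 for Cd3g, -0.63 to 0.05 for Cd4, -0.85 to 0.07 for Gzmb, -0.28 to 0.10 for Cd3d, -0.05 to 0.77 for Foxp3 and -0.06 to 1.14 for Ifng. No scaling turned a member.

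Replicate numbers do not pair the lungs; with them as a replicate block Foxp3 stayed called at 9 months (adjusted p = 0.0486), Gzma did not (adjusted p = 0.0895), and all genes called were 317, 42 and 6 in the 3 comparisons.

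All genes called, 1087 at 9 months, became 489 without a filter, 185 with the 2 groups alone and 159 to 1650 without an array. The 614 rises and 473 falls became 527 and 586 with quantile normalization and 555 and 655 with the deposited table. At 3 months 76 became 49 with normexp correction, 43 with the deposited table, 14 without a filter, 45 with all arrays required above background, 389 with the 2 groups alone and 1 to 303 without an array. Between 9 and 3 months 840 became 427 with median scaling, 104 without a filter, 335 with the 2 groups alone, 234 with sex as a covariate, 1391 with an intensity trend and 1 to 1223 without an array. Slide as a block left 0 in each of the 3 comparisons.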

Other observations

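Of 14 B cell and plasma cell genes, 1 fell at 9 months and 0 rose (2.81% and 3.65% of all genes). The list median was -0.65, and the fall was that of Fcer2a, the low-affinity IgE receptor of follicular B cells. Fcer2a fell by 1.62 on the log2 scale against control (adjusted p = 0.0184 in limma) and by 1.23 against 3 months (adjusted p = 0.0423). Jchain, the joining chain of secreted IgA and IgM, differed by 3.18 ± 0.84 at 3 months (adjusted p = 0.125), and Tnfrsf17, a receptor of plasma cells, by 2.18 ± 0.59 (adjusted p = 0.129), so neither passed the test. At 9 months 4 of the 14 were higher and 7 lower at an unadjusted p under 0.05, beside 14.8% and 12.5% of all genes. The 4 were Jchain (3.41 ± 0.84, adjusted p just above the threshold at 0.05), Tnfrsf17 (1.78 ± 0.59, adjusted p = 0.0993), Mzb1 (1.36 ± 0.41, adjusted p = 0.0829) and Pou2af1 (0.83 ± 0.26, adjusted p = 0.0874). Each had all 9-month lungs above all controls, as did 17.5% of all genes, and was named after the values were seen. In either direction 10 of the 14 were separated at 9 months, beside 32.5% of all genes. The 9-month call of Fcer2a held in 7 of 9 fits that left out 1 array and its call against 3 months in 1 of 9, and with slide as a block its difference from control was -0.97. Among 13 dendritic cell markers 1 rose at 9 months, beside 3.65% of all genes. It was Flt3, a receptor for the growth factor of dendritic cells, which rose by 1.05 ± 0.13 (adjusted p = 0.0106).

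The cytokines Il10 and Il17a were not well above background in any control or 3-month lung, and passed the filter on dim signal only through the 9-month lungs. At 9 months Il10, an anti-inflammatory cytokine, stood at -2.79, -5.26 and -0.48, at least 7.23-fold above the 3-month lungs (adjusted p = 0.0787), and Il17a, the cytokine of Th17 and gamma-delta T cells, at -4.23, -5.66 and -1.57, at least 3.7-fold above them (adjusted p = 0.0952). Neither passed the test, and replicate 3 was highest for both.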
